A study of Mus musculus with 19 samples.

Results

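Of the 5-hydroxymethylcytosine (5-hmC) peaks called in mouse cardiomyocytes (CMCs), those lying in repeat sequence are described here. A peak was taken as a repeat peak when 80% or more of its bases are soft-masked in the mm10 reference, that is, written in lower case because a repeat finder marked them as interspersed repeats, simple repeats or low-complexity sequence. Over the 8 peak lists, 32726 of 989991 autosomal peaks met this rule. The reference does not name the class of a masked base, so what kind of repeat a peak held was read here from its letters.

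CMCs of C57BL/6J mice were taken at 4 points, in 2 biological replicates a point, named E14.5 (embryos, the number giving the day of gestation), neonatal (1 to 2 days after birth), adult (2 months of age) and TAC, meaning adults taken 1 week after the aortic arch was tied down (transverse aortic constriction), which burdens the left ventricle and leads to CMC hypertrophy. Embryonic and neonatal CMCs came from digested ventricles after preplating, whereas adult and TAC CMCs came from left ventricles perfused with enzyme, so that age and way of isolation cannot be told apart. Sonicated DNA was precipitated with an antibody to 5-hmC (hMeDIP) and sequenced, and peaks were called in each replicate against input DNA. The lists give positions only: their score column is the same for each peak, they do not give the number of reads behind a peak, and no interval that rests on depth is given.

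Much of the mouse genome is repeat sequence, 33.5% of the known autosomal bases by this masking. Interspersed repeats are copies of mobile elements, such as LINEs, SINEs and retroviral elements with long terminal repeats, and most are held silent in somatic cells by methylation of their CpGs. TET enzymes oxidise 5-methylcytosine to 5-hmC, which in differentiated cells lies mainly on the bodies of active genes and on enhancers. Simple repeats are short units repeated head to tail, such as CA or GA, and hold few CpGs, the context in which 5-hmC is mostly found.

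The autosomal lists held 103752 to 151247 peaks. One library stood apart. In TAC replicate 2 the peaks lay beside those of the other lists rather than on them: around the centres of its repeat peaks, peak centres of the 7 other lists were 3.72 to 7.58 times as dense at 400 to 700 bp as within 150 bp, against at most 0.079 for the repeat peaks of each other list, measured against 6 lists. Its values are therefore also given apart. As a check of the cell type, peaks covered 6.90 to 26.7% of the bases of 10 CMC marker genes in the 8 lists and 1.12 to 3.12% of those of 10 fibroblast genes. For 9 endothelial genes the range was 4.49 to 11.2%. In E14.5 replicate 2 the CMC and endothelial genes were nearly equal, at 8.77% and 8.76%, so the check does not separate these 2 cell types in each list.

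Repeat peaks included simple-repeat tracts and interspersed sequences that recur from peak to peak, and examples are shown. Of the recurring 24-base sequences without a tandem run that are shown, none was held by more than 7.87% of the repeat peaks of a list. The tract shown is the longest CA run among repeat regions present in 7 lists (all but adult replicate 1), at chr1:20722778-20723077 (mm10, plus strand), intergenic and 8.47 kb from Il17a. Capitals mark its longest perfect tandem run, read here as TG on the plus strand.

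CA example: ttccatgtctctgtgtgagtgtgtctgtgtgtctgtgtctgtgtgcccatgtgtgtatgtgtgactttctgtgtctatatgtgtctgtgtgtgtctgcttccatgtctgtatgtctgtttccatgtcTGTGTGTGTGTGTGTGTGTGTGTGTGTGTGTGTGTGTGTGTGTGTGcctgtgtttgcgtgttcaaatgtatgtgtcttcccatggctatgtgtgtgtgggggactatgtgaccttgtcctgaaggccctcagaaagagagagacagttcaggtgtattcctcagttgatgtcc

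The run is 46 bases long.

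Of the 24-base sequences without a tandem run that were found in most repeat peaks of a list, 3 of the other 7 lists and 1 of TAC replicate 2 are shown. The 3 were picked in E14.5 replicate 1 or neonatal replicate 1. Sequences picked in adult replicates 1 and 2 and not shown are the third moved by 3 bases and by 1 base, so the third was also frequent there. They are printed in capitals inside a repeat peak that holds them, on the strand that reads as shown. The first lies in E14.5 replicate 1 at chr5:14956475-14956618 (minus strand), in an intron of the pseudogene Speer8-ps1. The second lies in neonatal replicate 1 at chr17:32105404-32105547 (plus strand), intergenic, 15.3 kb from Notch3. The third lies in E14.5 replicate 1 at chr1:30717372-30717515 (minus strand), intergenic, 85.2 kb from Phf3. The fourth lies in TAC replicate 2 at chr9:124255801-124255944 (minus strand), intergenic, 35.9 kb from 2010315B03Rik.

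the first sequence: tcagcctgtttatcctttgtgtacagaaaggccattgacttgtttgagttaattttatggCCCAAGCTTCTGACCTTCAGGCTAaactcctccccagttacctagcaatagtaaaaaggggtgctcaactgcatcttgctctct
the second sequence: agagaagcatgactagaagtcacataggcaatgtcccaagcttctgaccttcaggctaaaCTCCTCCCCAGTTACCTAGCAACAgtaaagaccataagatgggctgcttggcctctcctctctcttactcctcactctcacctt
the third sequence: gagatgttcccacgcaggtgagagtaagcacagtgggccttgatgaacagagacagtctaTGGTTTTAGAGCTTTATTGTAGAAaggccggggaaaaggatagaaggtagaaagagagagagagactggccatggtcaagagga
the fourth sequence: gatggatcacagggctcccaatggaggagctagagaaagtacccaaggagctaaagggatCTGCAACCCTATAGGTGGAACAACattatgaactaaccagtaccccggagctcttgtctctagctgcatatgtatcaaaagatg

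The context shown for the second sequence also holds the first, a few bases before it.

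The first question was how many peaks lie in repeats and whether this changed over the 4 points. E14.5 replicates 1 and 2 held 4649 and 5361 repeat peaks, 3.56% and 3.91% of their autosomal peaks. Neonatal replicates held 5018 and 5548, or 3.72% and 3.67%. Adult replicates held 2204 and 2798, or 2.12% and 2.32%. Repeat peaks were thus a smaller part of both adult lists than of each embryonic or neonatal list. TAC replicate 1 held 2537 repeat peaks, or 2.43%, close to the adult lists, and TAC replicate 2 held 4611, or 4.31%, the highest share of all 8 lists.

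As means ± SD (n = 2), repeat peaks made up 3.73% ± 0.243 in the E14.5 lists, 3.69% ± 0.0372 in the neonatal lists, 2.22% ± 0.136 in the adult lists and 3.37% ± 1.33 in the TAC lists. The spread between the points was not larger than between other divisions of the 8 samples into 4 pairs (exact permutation test over 105 divisions, one-sided, p = 0.362, adjusted p = 0.537 over 6 tests). Without TAC replicate 2 the p was 0.0667 and without TAC replicate 1 it was 0.0286. Neonatal and adult replicates did not overlap, but with 2 against 2 the exact two-sided permutation test cannot go below p = 0.333, which is the value found for neonatal against adult and for adult against TAC.

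In each list, repeat peaks were fewer than the same number and widths of windows laid over the same chromosomes would give. Every window of each width that holds no unknown base was taken at steps of 100 bp, and 11.2 to 11.8% of these windows met the rule. The observed share was lower in 8 of 8 lists, by 8.22 percentage points on average (exact sign-flip test over 8 samples, two-sided, p = 0.00781, the smallest it allows; adjusted p = 0.00781). The ratio of observed to placed share was 0.307 and 0.338 at E14.5, 0.323 and 0.324 in the neonatal lists, 0.186 and 0.207 in adult, and 0.212 and 0.366 in the TAC lists. It did not differ between the points beyond the spread of the replicates (exact division test, p = 0.343, adjusted p = 0.537).

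Reads of low mapping quality were removed before peaks were called, and repeat peaks held sequence with fewer exact copies than placed windows did. The median number of autosomal copies of the 24-base words in a repeat peak was 1.5 to 2 in 7 lists and 10 in TAC replicate 2, against 118 in placed windows that meet the rule. Of the words in repeat peaks, 45.6 to 50.5% occurred once on the autosomes in 7 lists and 33.9% did in TAC replicate 2, against 19.5% in the placed windows. The part that mappability played in the low share of repeat peaks was not tested.

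**Figure D1:**
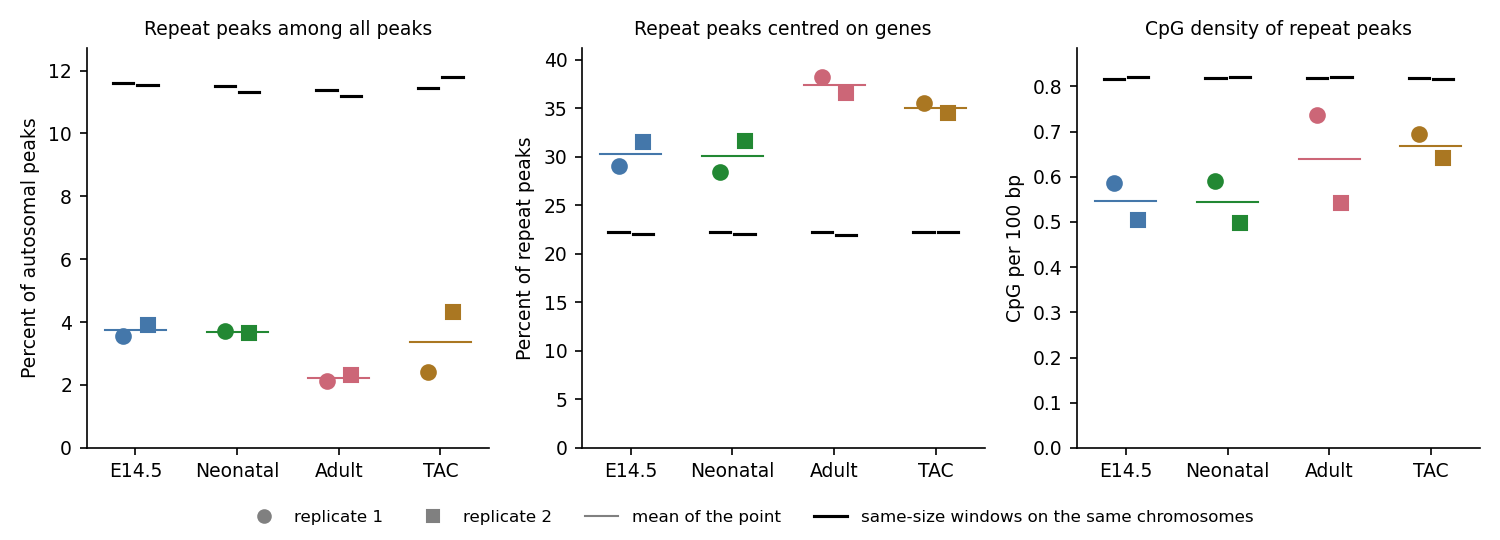
Share of autosomal peaks that are repeat peaks (left, percent), share of repeat peaks centred on a gene (middle, percent) and their CpG density (right, CpG per 100 bp) at the 4 points. Circles and squares are replicates 1 and 2, coloured lines the mean of a point and black bars the value of same-size windows on the same chromosomes; all 8 lists lie below the bars on the left and right and above them in the middle.

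Most repeat peaks were narrow. Their median width was 501 bp in each list, the most frequent width there, and 61.5 to 84.4% of them had this width. From 2.89 to 6.00% of repeat peaks were masked at every base in 7 lists, and 14.53% were in TAC replicate 2. At the threshold itself, 750 to 2286 peaks a list had 80 to 85% of their bases masked and 867 to 2981 had 75 to 80%, so the rule cuts through a continuous range. Sequence around them was less repetitive than the peaks: the median masked share of the 1 kb flanks was 30.1 to 36.4% in 7 lists, against about 21% around other peaks of the same lists, and 49.2% in TAC replicate 2. Over the chromosomes, averaged over the 8 lists, repeat peaks were 2.66% of the peaks of chromosome 11 and 3.91% of those of chromosome 16, the lowest and the highest share. Per Mb of masked sequence both chromosomes held nearly the same number, 5.75 and 5.74.

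Repeat peaks lay mostly between genes. At E14.5, 29.0% and 31.5% of them were centred on the transcribed stretch of a RefSeq gene, and in neonatal CMCs 28.4% and 31.6% were. In adult CMCs this genic share was 38.2% and 36.6%, and after TAC it was 35.5% and 34.5%. All 4 adult and TAC lists were thus above the 4 embryonic and neonatal lists. The exact division test over the 4 points gave p = 0.0476, which did not hold after adjustment over 6 tests (adjusted p = 0.286). The genic share of the other peaks of the same lists was 52.6 to 58.3% in embryonic and neonatal lists, 67.6% and 66.8% in adult lists and 66.5% and 56.5% after TAC, so both adult lists were higher there too.

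In each of the 8 lists the genic share of repeat peaks was below that of the other peaks, by 27.0 percentage points on average ± 3.85 (SD, n = 8; exact sign-flip test, p = 0.00781, adjusted p = 0.00781). It was at the same time above that of placed repeat windows, which were genic in 21.9 to 22.2%, by 11.03 points ± 3.59 in 8 of 8 lists (exact sign-flip test, p = 0.00781, adjusted p = 0.00781). Almost all genic repeat peaks were intronic: introns held 28.1 to 37.8% of repeat peaks and the region around a transcription start site 0.347 to 0.998%, against 1.75 to 2.15% of other peaks around a start site. The larger share of introns in both adult lists thus came with few repeat peaks at promoters in any list.

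CpGs were sparse in repeat peaks. Their density was 0.585 and 0.505 CpG per 100 bp in the E14.5 lists, 0.590 and 0.498 in the neonatal lists, 0.738 and 0.541 in the adult lists and 0.695 and 0.641 in the TAC lists. Other peaks of the same lists had 1.09 to 1.61, and the difference of -0.850 ± 0.176 (SD, n = 8) was negative in each list (exact sign-flip test, p = 0.00781, adjusted p = 0.00781). Repeat peaks were also below placed repeat windows, which had 0.817 to 0.820 CpG per 100 bp, by -0.219 ± 0.0876 on average and in 8 of 8 lists (exact sign-flip test, p = 0.00781, adjusted p = 0.00781). With peaks of at least 50% masked bases this second difference was -0.00441 and no longer past the threshold. From 10.4 to 18.3% of repeat peaks held no CpG.

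The points did not differ in CpG density beyond the spread between replicates (exact division test, p = 0.448, adjusted p = 0.537). Replicate 1 had the higher density at each of the 4 points. Repeat peaks without a tandem run had more CpG than those with one in each list, 0.615 to 0.860 against 0.440 to 0.597 per 100 bp. Set beside all placed repeat windows (0.817 to 0.820), those without a run were above in adult replicate 1 (0.860) and TAC replicate 1 (0.849). They were below in the other lists.

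Many repeat peaks held simple repeats. A perfect tandem run of at least 20 bases with a unit of 1 to 6 bases was held by 52.4% and 67.3% of repeat peaks in the E14.5 lists, 55.6% and 68.9% in the neonatal lists, 41.2% and 63.4% in the adult lists and 46.1% and 24.2% in the TAC lists. Placed repeat windows held one in 8.15 to 8.44%, and the difference of 44.1 percentage points ± 14.97 (SD, n = 8) was positive in 8 of 8 lists (exact sign-flip test, p = 0.00781, adjusted p = 0.00781). Other peaks held one in 17.0 to 42.0%. Replicate 2 had the higher share in the first 3 points and the lower in TAC. The points themselves did not differ beyond this (exact division test, p = 0.305, adjusted p = 0.537). How the antibody or the input libraries covered such runs was not tested, since input coverage was not used here.

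Tandem runs were grouped by the unit of the longest run in a peak. Purine units, made of A and G on one strand such as AG, AAG and AAAG, were in 12.02 and 15.1 of 1000 autosomal peaks in the E14.5 lists and in 13.8 and 15.3 in neonatal CMCs. In adult CMCs they were in 3.798 and 4.20, and after TAC in 4.32 and 4.36. The 4 embryonic and neonatal lists thus lay above the 4 adult and TAC lists with a wide gap, and TAC replicate 2 did not stand apart in this rate. It did in the units behind the rate. AG was the longest run in 91 of its repeat peaks, against 209 in TAC replicate 1, and AAAG in 133 against 42. The exact division test gave p = 0.0381, which did not hold after adjustment over 5 classes (adjusted p = 0.190). With the 4 points permuted within each replicate number, an alternative added after the values were seen, the exact permutation test gave an unadjusted p = 0.0417, the smallest its 24 arrangements allow. Of the repeat peaks themselves, 33.7 to 41.8% had a purine unit in the embryonic and neonatal lists and 10.1 to 18.1% in the adult and TAC lists, against 2.66% of placed windows of 501 bp that meet the rule.

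Runs of CA did not show this order. They were in 3.99 and 5.65 of 1000 autosomal peaks in the E14.5 lists, 3.87 and 5.18 in the neonatal lists, 2.94 and 6.82 in the adult lists and 4.53 and 1.37 in the TAC lists. The points did not differ beyond the spread between replicates (exact division test, p = 0.733, adjusted p = 0.743). In adult replicate 2 CA runs made up 29.4% of repeat peaks and in TAC replicate 2 3.19%, against 0.950% of placed windows.

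A unit of 6 bases, AGAGGC, followed the replicate number instead. It was the longest run in 182 repeat peaks of E14.5 replicate 2, 179 of neonatal replicate 2 and 71 of adult replicate 2. Replicates 1 of these points had 7, 7 and 4 such peaks, TAC replicate 1 had 4 and TAC replicate 2 had 22. The labels do not say whether samples with the same replicate number share a day, a batch or a reagent.

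**Figure D2:**
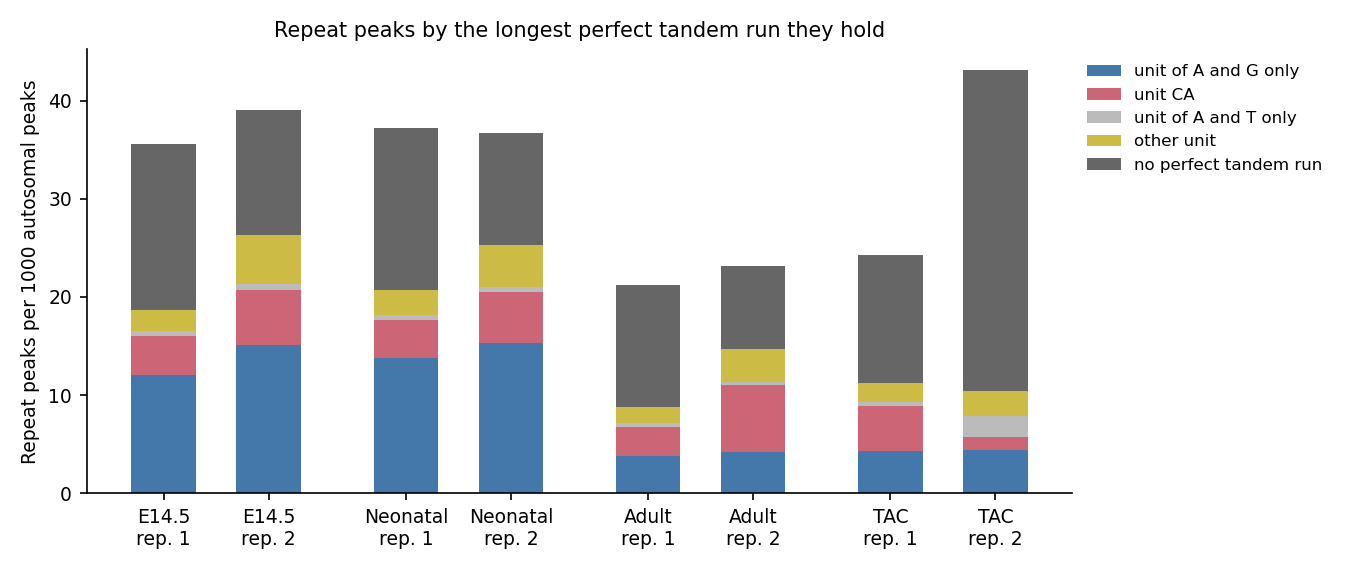
Repeat peaks per 1000 autosomal peaks of each list, stacked by the unit of the longest perfect tandem run of at least 20 bases. The purine part (bottom) is 12.02 to 15.3 in the embryonic and neonatal lists and 3.798 to 4.36 in the adult and TAC lists, while peaks without a tandem run (top) are most frequent in TAC replicate 2.

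Repeat peaks without a tandem run numbered 2214 and 1753 in the E14.5 lists, 2227 and 1725 in the neonatal lists, 1296 and 1024 in the adult lists and 1368 and 3495 in the TAC lists. Per 1000 autosomal peaks these were 17.0 and 12.8, 16.5 and 11.4, 12.49 and 8.48, and 13.1 and 32.7. The points did not differ in this class beyond the spread between replicates (exact division test, p = 0.419, adjusted p = 0.743). Replicate 1 had more of them per 1000 peaks than replicate 2 at the first 3 points, and TAC replicate 2 had the most of all lists.

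Among these, a few interspersed sequences recurred in many peaks. The first sequence shown has 1007 exact copies on the autosomes in the reference, read on both strands, and 366 repeat peaks of E14.5 replicate 1 held it. Its counts in repeat peaks were 186 in E14.5 replicate 2, 334 and 207 in the neonatal lists, 98 and 31 in the adult lists and 114 and 4 in the TAC lists. Counting all peaks and not only repeat peaks, 49.5% and 25.1% of its copies lay inside a peak in the E14.5 lists, 45.7% and 27.8% in the neonatal lists, 14.101% and 7.05% in the adult lists and 16.1% and 0.894% in the TAC lists. The 4 embryonic and neonatal lists were all above the adult and TAC lists.

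The second sequence, with 910 copies, behaved alike, with 44.7% and 22.2% of its copies in peaks in the E14.5 lists, 45.6% and 23.8% in the neonatal lists, 11.1% and 5.16% in the adult lists and 13.7% and 0.549% in the TAC lists. First and second sequence often lay together: 35.4% of the copies of the first had a copy of the second within 1 kb. Over all lists, 486 repeat peaks held both. The context shown for the first also holds the second but for 1 base. The 2 are therefore not independent observations. The third sequence, with 1112 copies, was in peaks in 44.9% and 27.2% in the E14.5 lists, 43.6% and 26.2% in the neonatal lists, 20.95% and 12.7% in the adult lists and 20.6% and 2.07% in the TAC lists. These shares are not adjusted for the length of a list. Per 1000 autosomal peaks, repeat peaks with the third sequence were 0.826 in neonatal replicate 2 and 0.852 in TAC replicate 1, so the lists were not fully split by that count. A sequence picked in E14.5 replicate 2 and not shown, with 52678 copies, was not lower in the adult and TAC lists. Its copies were in peaks in 1.97% and 2.24% in the E14.5 lists and 2.95% and 3.86% in the neonatal lists. The adult lists had 3.38% and 2.67% and the TAC lists 2.99% and 4.03%. These sequences were chosen for how many repeat peaks hold them, and the split from tandem repeats was made after their counts were seen, so the levels are a description with no test.

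None of these 24-base sequences holds a CpG. The repeat peaks around the first had 0.549 to 0.937 CpG per 100 bp, and 16.1 to 30.6% of them were genic in the 7 lists other than TAC replicate 2. For each of the first 3 sequences, replicate 1 had the larger share of copies in peaks at each point. The fourth sequence was frequent in a single list. It has 34729 copies, of which 1.57% lay in peaks of TAC replicate 2 and 0.0490 to 0.127% in peaks of the 7 other lists. It was in 335 repeat peaks of TAC replicate 2, which is 7.27% of them, and in 4 to 11 of each other list. A further sequence of TAC replicate 2, found in 207 of its repeat peaks, has 37883 copies, and 4.56% of them lay in peaks there against 0.998 to 2.31% in the other lists.

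**Figure D3:**
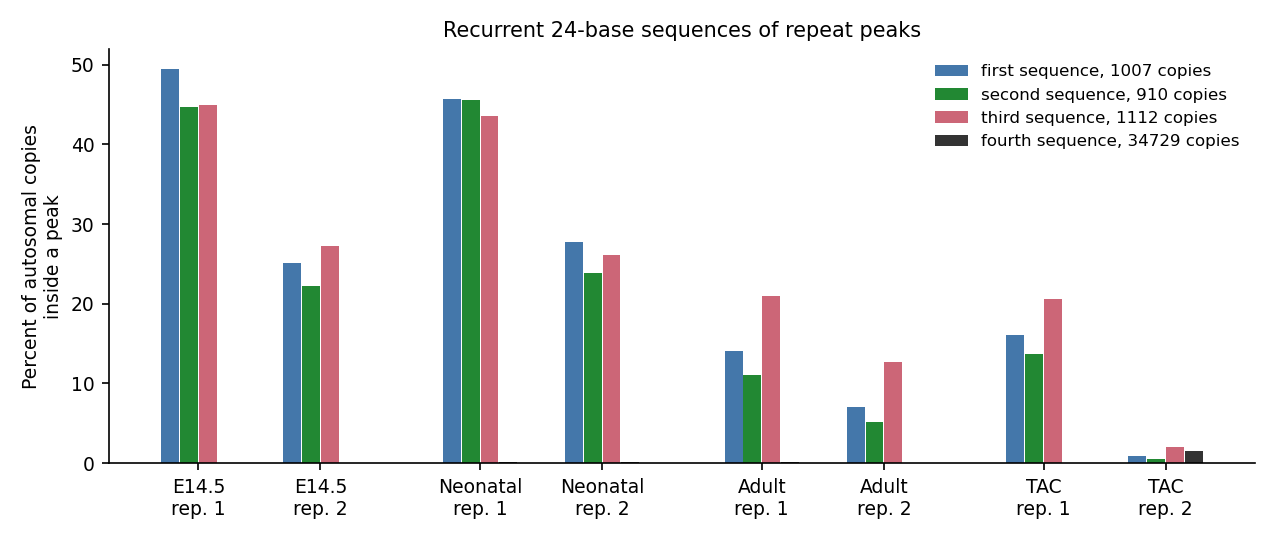
Percent of the exact autosomal copies of 4 recurrent 24-base sequences that lie wholly inside a peak of each list (repeat peaks and other peaks). The first 3 sequences reach 22.2 to 49.5% in the embryonic and neonatal lists and 5.16 to 20.95% in the adult lists; the fourth is at 1.57% in TAC replicate 2 and at most 0.127% in the other lists.

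Sharing between replicates was measured as the percent of peaks of one list that have at least 1 bp in common with a peak of the other list. At E14.5, 53.7% of the repeat peaks of replicate 1 were overlapped in replicate 2 and 35.1% in the other direction. In neonatal CMCs these values were 50% and 35.0%, in adult CMCs 38.2% and 23.7%, and after TAC 34.3% and 6.98%. The lists of a pair hold unequal numbers of repeat peaks, so both directions are given, and sharing was lowest for the repeat peaks of TAC replicate 2.

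Averaged over both directions, repeat peaks were shared in 44.4% in the E14.5 lists, 42.5% in the neonatal lists, 31.0% in the adult lists and 20.7% in the TAC lists, and other peaks in 41.7%, 44.7%, 40.5% and 21.2%. The difference of -2.39 percentage points ± 5.15 (SD, n = 4 points) was positive at 1 point (exact sign-flip test, p = 0.5; 4 points cannot go below 0.125). Placed repeat windows met a peak of the other replicate in only 0.971 to 2.07%, so repeat peaks were shared 14.8 to 31.9 times as often as placement gives. Other peaks were shared 3.26 to 5.04 times as often as theirs. The placed repeat windows differ from repeat peaks in copy number, with a median of 118 autosomal copies of their words. Repeat peaks had 10 in TAC replicate 2 and 1.5 to 2 in the other lists. Reads of low mapping quality were removed, and the part that mappability played in these ratios was not tested. In single lists the difference between repeat peaks and other peaks went both ways. Repeat peaks were shared less often than other peaks in adult replicate 2 (23.7% against 37.1%) and TAC replicate 2 (6.98% against 21.6%), and more often in E14.5 replicate 1 (53.7% against 42.5%) and TAC replicate 1 (34.3% against 20.7%).

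At E14.5, neonatal and adult, repeat peaks of replicate 2 were overlapped more often by replicate 2 of another of these points than by replicate 1 of their own, except those of E14.5 and neonatal against adult replicate 2. Of the repeat peaks of adult replicate 2, 79.3% were overlapped in E14.5 replicate 2 and 77.8% in neonatal replicate 2, against 40.5% and 40.1% in replicates 1 of these points and 23.7% in adult replicate 1. Of those of E14.5 replicate 2, 71.3% were overlapped in neonatal replicate 2 and 35.1% in E14.5 replicate 1. By comparison, 37.3% of the other peaks of adult replicate 2 met a peak of E14.5 replicate 2 and 37.1% one of adult replicate 1. Other peaks of E14.5 replicate 2 met neonatal replicate 2 in 67.0% and E14.5 replicate 1 in 40.9%. Those of neonatal replicate 2 met E14.5 replicate 2 in 59.4% and neonatal replicate 1 in 41.9%. Between E14.5 and neonatal, the order by replicate number was thus also seen among other peaks.

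On base pairs, the mean Jaccard index of repeat peaks (shared bases over all bases covered by either list) was 0.0874 within points. Pairs of the same number from different points averaged 0.124 and pairs of different numbers 0.0696. The mean within points was not above that of other divisions into pairs (exact permutation test over 105 divisions, one-sided, p = 0.552, adjusted p = 0.552). Other peaks had 0.179 within points, 0.178 for equal numbers and 0.146 for different numbers (exact division test, p = 0.181). For repeat peaks, pairs with the same replicate number thus had the higher mean, also across points.

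The overlap was not the same for all classes of repeat. CA runs of adult replicate 1 were overlapped in 73.1% by adult replicate 2, its purine runs in 25.1% and its peaks without a run in 32.6%. In E14.5 replicate 1 these 3 shares were 91.2%, 50.03% and 45.9% against E14.5 replicate 2. In the other direction CA runs were shared less, in 22.3% from adult replicate 2 and in 31.3% from E14.5 replicate 2. CA runs were more numerous in replicate 2 of these points, and the overlap counted here is with any peak of the other list, whether or not it holds a CA run.

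**Figure D4:**
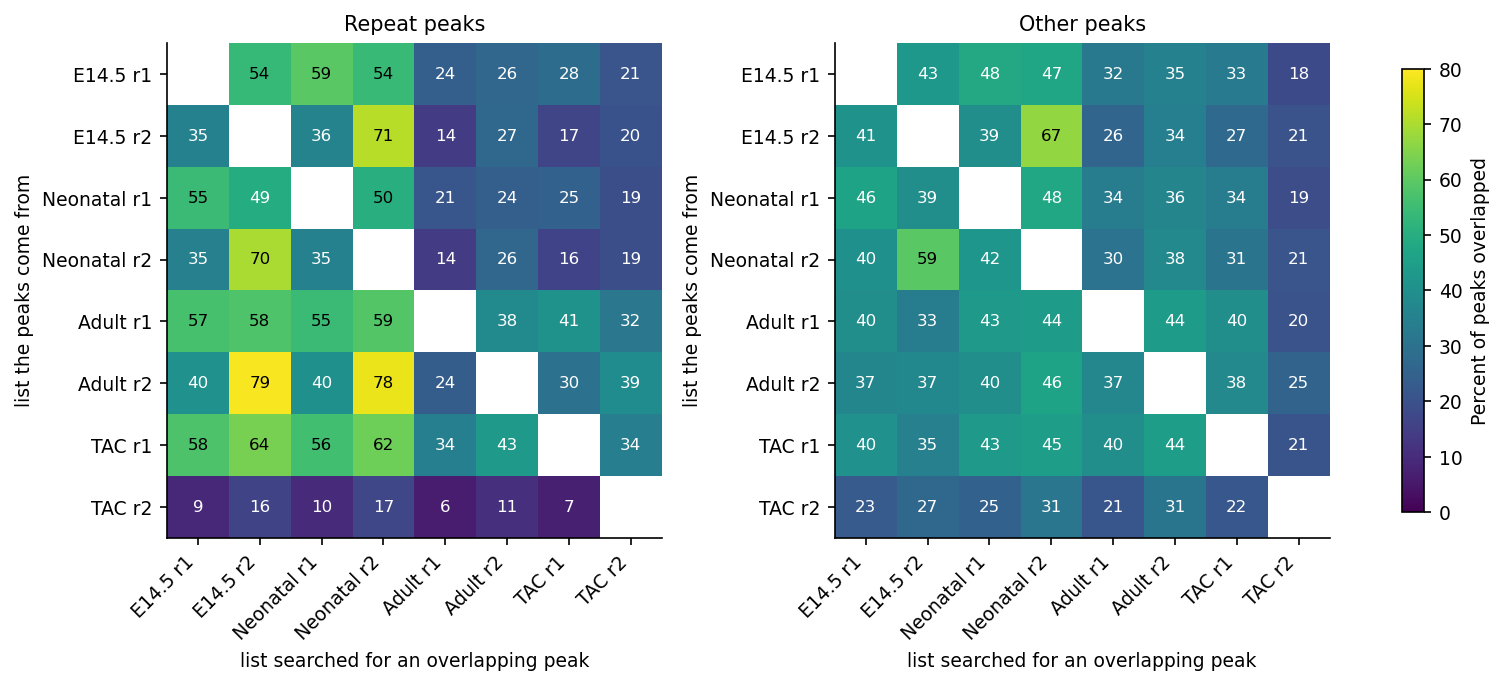
Percent of repeat peaks (left) and of other peaks (right) of the list in each row that share at least 1 bp with a peak of the list in each column; r1 and r2 are replicates 1 and 2. Among repeat peaks the values between replicates 2 of E14.5, neonatal and adult CMCs reach 79.3%, while the row of TAC replicate 2 stays between 6.12 and 17.1%.

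To follow single places over the 4 points, the peaks of all 8 lists were merged into 397618 regions, of which 11425 had at least 80% masked bases (repeat regions). Since merging adds unmasked sequence beside a peak, 17652 repeat peaks lay in a repeat region and 15074 in a wider region under the threshold. Repeat regions were mostly seen once: 64.1% of them had a peak in a single list, against 46.8% of all regions. TAC replicate 2, whose peaks lay beside those of the other lists, alone held 3103 of these. Only 5 repeat regions, or 0.0438%, had a peak in all 8 lists, against 1.67% of all regions. Both directions turned when each of the 19916 regions that hold a repeat peak was counted, whatever its own masked share, an alternative added after the values were seen. Of these, 36.8% had a peak in a single list and 654, or 3.28%, in all 8 lists. A region with peaks in more lists has more chances to hold a repeat peak, so this count leans to widely shared regions.

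Of these 5 regions, 4 held a perfect tandem run of at least 20 bases, with the units AC, AG and AAG. Intergenic ones were chr16:31643578-31646273, with 0.519 CpG per 100 bp and 5.95 kb from Gm536, and chr16:32211132-32212668, with 0.260 and 18.2 kb from Fbxo45. The fewest CpGs were in chr10:48731142-48732615, with 0.136 per 100 bp, intergenic and 362 kb from the glutamate receptor gene Grik2. A stretch of 300 bases from the middle of this last region shows a purine tract on the plus strand; CpGs would be in capitals, and the stretch holds none.

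chr10:48731729-48732028: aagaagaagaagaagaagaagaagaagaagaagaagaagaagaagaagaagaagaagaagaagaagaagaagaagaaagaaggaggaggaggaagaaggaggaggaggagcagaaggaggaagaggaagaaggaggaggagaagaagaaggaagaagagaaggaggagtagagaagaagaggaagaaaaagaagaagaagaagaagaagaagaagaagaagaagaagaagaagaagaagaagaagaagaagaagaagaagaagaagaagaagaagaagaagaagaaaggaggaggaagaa

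A region was called gained between points when both later replicates and neither earlier one had a peak, and lost when the reverse held. From E14.5 to neonatal, 1.23% of repeat regions (140) were gained, against 2.49% of all regions, and 0.954% (109) were lost, against 1.51%. From neonatal to adult, 0.245% (28) were gained, against 2.42% of all regions, and 5.76% (658) were lost, against 5.04%. From adult to TAC, 0.289% (33) were gained, against 1.09%, and 0.446% (51) were lost, against 3.11%. The gain after TAC depended on having both TAC lists: where 1 TAC list decided a call, it was 30.1% without TAC replicate 1 and 8.30% without TAC replicate 2, and the loss was then 0.877% and 0.952%. Since the peaks of TAC replicate 2 lay beside those of the other lists, a call that needs both TAC lists can miss a place. How far this changed the calls from adult to TAC was not tested. The loss from neonatal to adult was thus the most frequent call for repeat regions. It took 658 of the 928 repeat regions with a peak in both neonatal lists. As a share of all repeat regions it lay near the background, while gains at that step were far below it. Regions with a peak in a single list cannot be called, and they were 64.1% of repeat regions against 46.8% of all regions. The background is therefore not a like one for any of these shares.

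Among the 19916 regions that hold a repeat peak, 8.98% were lost and 0.603% gained from neonatal to adult, and 1.81% were gained and 1.24% lost from adult to TAC. With this count the loss from neonatal to adult lay above the background of 5.04% and the gain after TAC above that of 1.09%, whereas gains from neonatal to adult stayed below it. Regions with a peak in a single list cannot be called, and they were 36.8% of this set against 46.8% of all regions. Since regions with more peaks have more chances to enter the set, the background is not a like one. How far this selection raised the values was not tested. There is no test of these counts, as a call uses all replicates of 2 points.

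**Figure D5:**
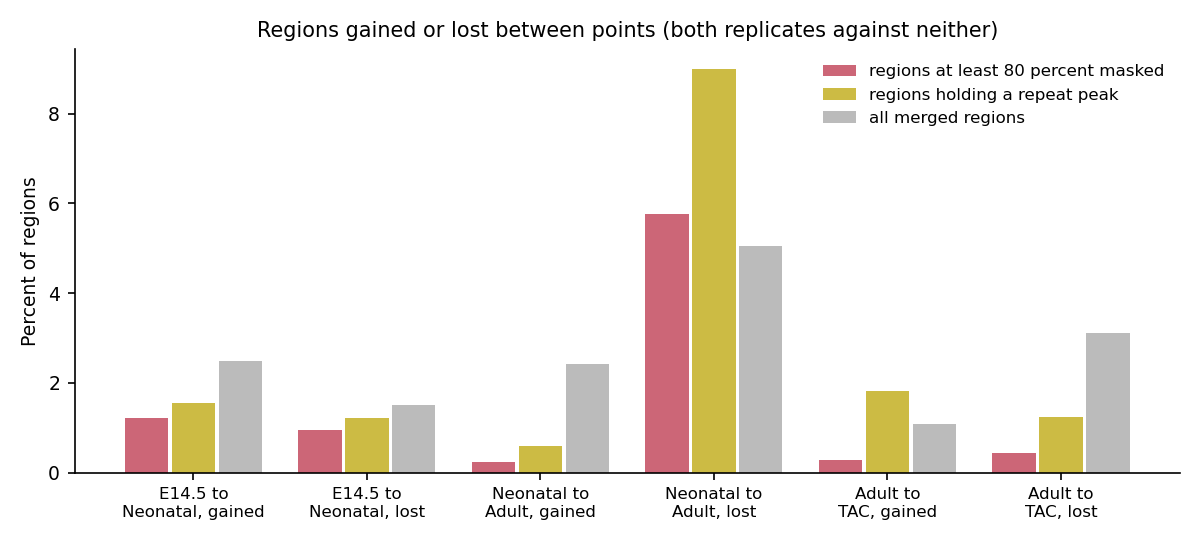
Percent of regions gained or lost at each transition (peak in both replicates of one point and in neither of the other) among repeat regions, regions holding a repeat peak and all merged regions. The highest bars are the loss from neonatal to adult, at 5.76, 8.98 and 5.04%.

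The regions of single genes were few. Cpa6, a carboxypeptidase gene of 395 kb, had 3 repeat regions lost from neonatal to adult, the most of any protein-coding gene. Its repeat peaks numbered 2 and 2 in the E14.5 lists, 3 and 5 in the neonatal lists, 0 and 0 in the adult lists and 0 and 1 in the TAC lists. Its peaks in all numbered 12 and 7, 8 and 11, 3 and 1, and 2 and 4 at these points. The fall was thus not confined to its repeat peaks. Dnah7c, an axonemal dynein gene with close copies beside it, lost 2.

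A call counts any peak that lies in a repeat region, also one that is not itself a repeat peak. At the other steps no gene had more than 1 region called, and the genes named are the first by name among many with 1. From E14.5 to neonatal these were Akap12, Ammecr1l and Arap1 for gains and Akr1c14, Bicd1 and Clec2g for losses. From neonatal to adult Abi1, Cep85 and Cul1 gained 1 each. From adult to TAC Cntnap2, Dock3 and Dync2h1 gained 1 each, and Akap13, Appbp2 and Cog5 lost 1 each.

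Cardiac gene lists held almost no repeat regions present in both replicates of a point. Of 18 sarcomere and Z-disc genes, 11 genes of fatty acid and mitochondrial metabolism, 14 cardiac transcription factors, 8 genes of DNA methylation and TET enzymes and 11 genes of repeat silencing, 0 had one at any point. Among all 20021 protein-coding genes, 184 had one in the E14.5 lists, 189 in the neonatal lists, 38 in the adult lists and 22 in the TAC lists, which is 0.203, 0.210, 0.0412 and 0.0232 repeat regions per Mb. Lists this short would hold few such regions at the rate of all genes. Of 16 calcium and ion channel genes 1 had such a region, at E14.5, neonatal and adult.

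That gene was Trdn, which encodes triadin, a protein of the sarcoplasmic reticulum that joins the ryanodine receptor to calsequestrin. It spans 393 kb (chr10:33083483-33476709) and held 11 repeat regions over the 8 lists. Its repeat peaks numbered 2 and 0 in the E14.5 lists, 4 and 1 in the neonatal lists, 2 and 2 in the adult lists and 3 and 3 in the TAC lists, out of 6 and 4, 12 and 7, 9 and 7, and 11 and 9 peaks in all. Both TAC lists were above both E14.5 and both adult lists by 1 to 3 repeat peaks, while neonatal replicate 1, with 4, was above both TAC lists. No repeat region of Trdn had a peak in both TAC lists, of which replicate 2 had its peaks beside those of the other lists. Ryr2, the ryanodine receptor gene of the heart, had 0 and 1, 0 and 0, 3 and 1, and 2 and 1 repeat peaks among 43 to 109 peaks in all. Cacna1c, the gene of the L-type calcium channel, had at most 3 repeat peaks in a list among 94 to 159.

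In any single list, 3 sarcomere genes, 9 channel genes, 1 metabolic gene (Cd36), 2 transcription factor genes (Mef2a and Meis2), 2 of the DNA methylation group (Dnmt3a and Tet2) and 0 repeat silencing genes held a repeat region. Mef2a, a factor of muscle gene transcription, had 2 and 1, 1 and 2, 2 and 4, and 1 and 1 repeat peaks at the 4 points. Among all 20021 protein-coding genes 2165 held one, or 10.8%, against 56.2% of the channel genes.

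Per Mb, the channel genes had 5.78 repeat regions in any list, of which Trdn alone held 11 of 22, and 3.22 without Trdn, an alternative added after its values were seen. All protein-coding genes had 3.47. The DNA methylation and TET genes had 6.04, from 3 regions, the transcription factor genes 2.01, the sarcomere genes 1.99, the metabolic genes 0.926 and the repeat silencing genes 0. Without Trdn the channel list thus lay near all genes, and the other lists rest on at most 4 regions each.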

How the data were processed

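5-hmC was measured by hMeDIP-seq. Per the submitters' processing notes and the study's methods, the authors aligned reads to mm10 with BWA 0.7.4-r385, marked duplicates with Picard, removed reads of mapping quality below 10 and called broad peaks per replicate against input with HOMER. The deposited lists give positions and a score that is the same for each peak. Input libraries were not used here.

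Masked bases, CpGs and genes came from GRCm38.p6 (mm10) and its RefSeq annotation. Peaks of the 19 autosomes were kept. Placement is the mean over every window of the same width and chromosome without unknown bases, at starts 100 bp apart. The start site class runs from 1 kb upstream to 100 bp downstream. Tests were exact: the division test sets the spread between points against its value in each of the 105 ways to divide 8 samples into 4 pairs, and the sign-flip test changes the signs of the 8 differences. The p-values measure the spread between these samples only. Adjustment was by Benjamini-Hochberg. Scripts ran in Python 3.11.15 with numpy 2.4.6 and were tested on simulated data. Alternatives were other masking thresholds, equal numbers of peaks, each library left out, TAC left out, a replicate block, other annotations, overlaps and run lengths.

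Named regions were repeat regions with a peak in all 8 lists. Named genes were, for each step, the 3 protein-coding genes with most gained and with most lost repeat regions, ties by name, and members of the lists that held repeat regions. Named 24-base sequences were those in most repeat peaks of a list. Members and lists were chosen with earlier results of these data known. Atrx, of the repeat silencing list, lies on the X chromosome and was not counted, and Lsh was counted once as Hells. Some regions and genes that these rules name are not reported here.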

Additional observations from a re-analysis of the deposited data

How the results depend on the processing

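The genic share over the 4 points (exact division test, p = 0.0476) depended on the setting. Its p was 0.0667 with every base masked, 0.114 with equal numbers of first-listed peaks, 0.2 without the TAC samples and 0.0857 for repeat peaks without a tandem run, a setting chosen after seeing the data. Leaving out each library gave 0.019 to 0.0952. For the repeat share, leaving out a library gave an exact p = 0.0286 to 0.524, and against placement 0.0381 to 0.514; the lowest values were without TAC replicate 1. With at least 50% masked bases, CpG density minus placement was -0.00441. Replicate sharing minus other peaks was -7.71 with peaks up to 1 kb apart and 2.69 with 50% overlap of both peaks.

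With the replicate number as a block, p was 0.0833 for the genic share, 0.375 for the repeat share, 0.333 against placement, 0.25 for CpG density, 0.292 for tandem runs and 0.0417 for purine runs, the last chosen after seeing the data. Over 503 bins of 5 Mb, same-numbered samples of the first 3 points correlated by 0.185 to 0.327 and those of TAC with them by -0.0198 to 0.0965. Not every pair was above 0.1, so the numbers were not taken to pair samples, although those without TAC deviated together.

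Repeat regions called moved most. With 50% masked, 0.588% were gained from neonatal to adult, and 0.695% gained and 1.004% lost from adult to TAC. With every base masked, 0.608% were gained and 0.365% lost from E14.5 to neonatal, 1.70% lost and 0 gained from neonatal to adult, and 0 either way from adult to TAC. With equal numbers, 0.489% were gained from E14.5 to neonatal and 3.03% lost from neonatal to adult. Without TAC, 0.394% were gained from neonatal to adult. With either replicate, gains and losses were 20.3% and 15.7%, 7.08% and 40.3%, and 35.1% and 11.6% at the 3 steps. Regions holding a repeat peak gave 0.603% and 8.98% from neonatal to adult and 1.81% and 1.24% from adult to TAC. Leaving out each library, which lets 1 replicate decide a call, gave 1.25 to 12.3% gained and 0.966 to 8.79% lost from E14.5 to neonatal, 0.244 to 4.68% and 5.94 to 26.7% from neonatal to adult, and 0.287 to 30.1% and 0.479 to 6.49% from adult to TAC. The highest gain after TAC was without TAC replicate 1.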
